A study of Mus musculus with 16 samples.

Results

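Lrp2 encodes megalin and Cubn encodes cubilin, the pair of large endocytic receptors of the renal proximal tubule. Their kidney over liver ratios were followed across every hybridisation of a comparison of mouse kidney and liver. Members were all probes annotated with the single gene symbol Lrp2 or Cubn. This gave 3 of 20419 probes, namely Lrp2 probe 761, Lrp2 probe 808 and Cubn probe 267, and 2 of 9669 named genes. The samples came from male wildtype mice of the inbred strain C3HeB/FeJ, aged 105 ± 5 days. On 7 arrays the left kidney of mouse 1, 2 or 3 was hybridised against a pool of 5 livers, with 3, 3 and 1 arrays per mouse. On 9 arrays the dorsal liver lobe of the same 3 mice was hybridised against a pool of 5 kidneys, with 3 arrays per mouse. The labels name no treatment, and the pools carry no spread between animals.

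Megalin is a membrane protein of the lipoprotein receptor family. Cubilin is a peripheral membrane protein held at the surface by amnionless, the product of Amn, and it relies on megalin for much of its uptake. Together the receptors clear filtered albumin, vitamin carrier proteins, hormones and small plasma proteins from the tubular fluid through clathrin-coated pits and endosomes at the brush border. Many of those ligands are plasma proteins made by hepatocytes.

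Both genes lie on mouse chromosome 2 on the minus strand, Lrp2 at chr2:69424335-69586029 and Cubn at chr2:13276338-13491876 in RefSeq's GRCm38.p6 annotation. Their promoter windows are shown because the 2 genes shared their direction on every array, described below. Each window runs from 250 bases before to 50 bases after the annotated start and is written 5′ to 3′ on the gene's strand. The window is chr2:69585980-69586279 for Lrp2 and chr2:13491827-13492126 for Cubn. Capitals mark CpG dinucleotides, in which the windows differ.

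Lrp2 promoter: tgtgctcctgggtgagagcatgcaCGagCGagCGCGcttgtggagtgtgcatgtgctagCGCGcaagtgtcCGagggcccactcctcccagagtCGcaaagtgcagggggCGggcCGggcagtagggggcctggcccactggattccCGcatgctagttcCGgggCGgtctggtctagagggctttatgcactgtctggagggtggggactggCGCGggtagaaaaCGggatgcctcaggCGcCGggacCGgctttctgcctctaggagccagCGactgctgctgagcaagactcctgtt

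Cubn promoter: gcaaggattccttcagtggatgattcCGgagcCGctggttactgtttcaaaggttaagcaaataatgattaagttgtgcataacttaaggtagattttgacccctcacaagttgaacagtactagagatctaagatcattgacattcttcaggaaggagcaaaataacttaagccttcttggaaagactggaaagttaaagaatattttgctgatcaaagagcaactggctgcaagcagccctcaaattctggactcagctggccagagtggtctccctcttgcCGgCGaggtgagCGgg

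The windows differed in base composition. The Lrp2 window had 65.0% GC and 20 CpG dinucleotides, and the Cubn window had 44.3% GC and 5. The median over 32851 RefSeq promoter windows of the same length was 52.7% GC and 7 CpG dinucleotides. GC was lower in 81.7% of all windows than in that of Lrp2, and in 20.1% than in that of Cubn. On both strands together, the Lrp2 window held 2 GC boxes (GGGCGG) and the Cubn window none, and 35.7% of all windows held one. Neither window held the TATA box TATAAA, present in 13.6% of windows, or the CAAT box CCAAT, present in 37.4%. These matches describe letters in a window only.

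On this platform a value is a log2 ratio between an organ of 1 mouse and a pool of the other organ, so it carries no RNA level for either receptor. All ratios are given as kidney over liver. The base and the direction were read from the values, since the labels state neither. Of 24 hepatocyte genes that included neither receptor, 21 were measured. As deposited, the mean of each of the 21 was above 0 on kidney arrays and below 0 on liver arrays. All 12 measured genes of 18 on a kidney list had the opposite signs. The order of sample and pool in the array titles would turn every kidney and liver word round and leave sizes and tests unchanged. The arrays of mouse 2 stood apart. Their median kidney over liver ratio over all probes ranged over -1.49 to -1.19 for its kidney and over -1.35 to -1.32 for its liver. The other 10 arrays had medians within 0.003 of 0. An array gave values for 15480 to 19432 probes. The 3 receptor probes had values on all 16 arrays, and none of their values recurred exactly within an array of mice 1 and 3.

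Both receptors were higher in kidney than in liver on every one of the 16 arrays. Cubn, estimated at 5.16 on the log2 scale, was about 35.8-fold higher, and Lrp2 was 23.8-fold and 8.88-fold higher by its 2 probes. In whole-organ RNA, more cells of a type and more RNA per cell cannot be told apart.

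Cubilin, read by 1 probe, had the highest of the 3 estimates. On the kidney arrays the Cubn log2 ratios were 5.05, 5.11 and 5.07 for mouse 1, 4.28, 4.16 and 4.67 for mouse 2, and 6.35 on the single array of mouse 3. On the liver arrays they were 4.57, 5.15 and 5.49 for mouse 1, 4.29, 4.23 and 4.48 for mouse 2, and 5.50, 6.33 and 5.49 for mouse 3. The kidney and liver arrays overlapped, mouse 2 held 5 of the 6 lowest values, and mouse 3 the highest value on both kinds of array. Averaged per mouse, the Cubn ratio came to 5.26 ± 1.00 on kidney arrays and 5.06 ± 0.72 on liver arrays (SD, n = 3 mice each).

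Megalin was represented by 2 probes that read ratios of different size. For Lrp2 probe 761 the kidney arrays gave 4.95, 4.53 and 4.64 for mouse 1, 3.17, 3.67 and 3.98 for mouse 2, and 4.49 for mouse 3. Its liver arrays gave 4.77, 4.90 and 5.28 for mouse 1, 3.67, 4.18 and 3.72 for mouse 2, and 5.22, 6.48 and 5.68 for mouse 3. The 6 lowest values of probe 761 were those of mouse 2. Per mouse, probe 761 averaged 4.27 ± 0.58 on kidney arrays and 4.88 ± 0.98 on liver arrays (SD, n = 3 mice each), ranges that overlap.

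For Lrp2 probe 808 the kidney arrays gave 2.79, 2.67 and 3.83 for mouse 1, 2.43, 2.57 and 2.07 for mouse 2, and 3.94 for mouse 3. Its liver arrays gave 2.91, 2.62 and 3.27 for mouse 1, 2.45, 2.83 and 2.55 for mouse 2, and 3.06, 4.32 and 4.51 for mouse 3. Mouse 3 held the highest value of probe 808 on both kinds of array, while mice 1 and 2 overlapped on the liver arrays only. The averages were 3.13 ± 0.79 on kidney arrays and 3.17 ± 0.71 on liver arrays (SD, n = 3 mice each).

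**Figure D1:**
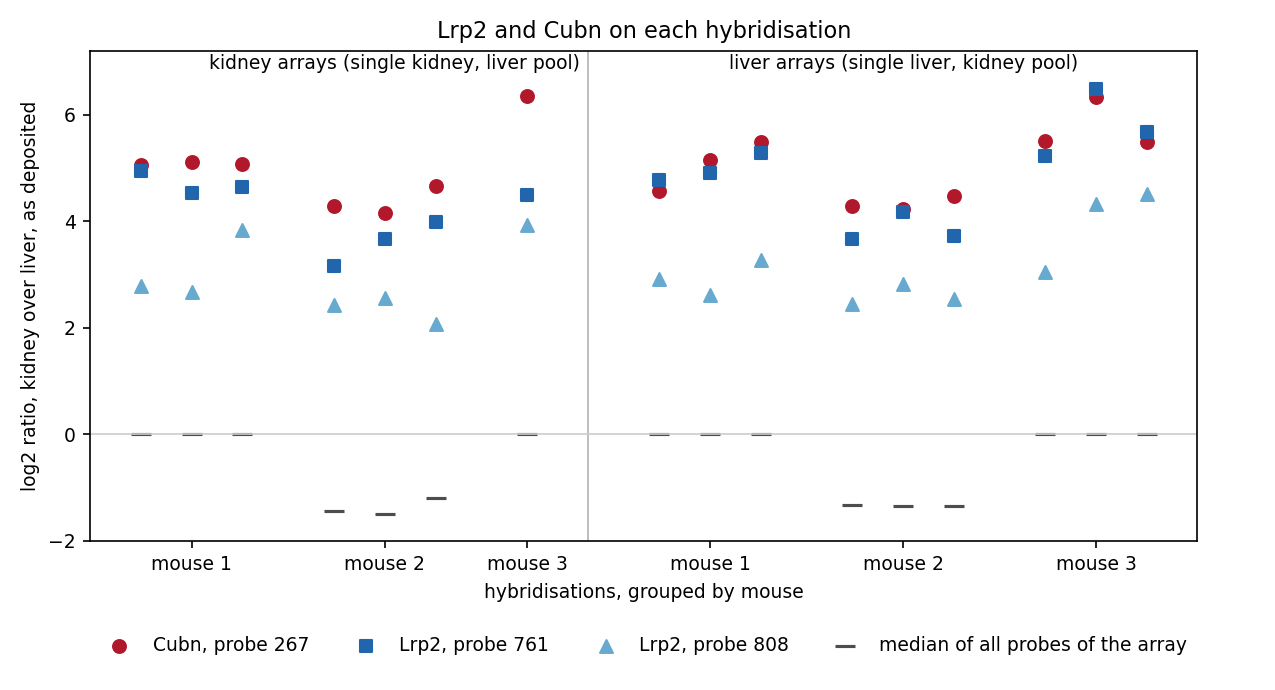
Log2 ratio, kidney over liver, as deposited (vertical axis) for the Cubn probe and the 2 Lrp2 probes on each hybridisation, grouped by mouse, with kidney arrays on the left and liver arrays on the right; dashes give the median of all probes on the array. All receptor values lie above 2, between 2.07 and 6.48, and the medians of the mouse 2 arrays lie between -1.49 and -1.19.

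The estimates came from limma fitted to 6 averages, 1 per mouse and organ, over 18670 probes, with two-sided p-values adjusted by Benjamini-Hochberg. Cubn was higher in kidney by 5.16 on the log2 scale (SE 0.317, 95% interval 4.43 to 5.89, limma adjusted p = 1.94e-05). Lrp2 probe 761 was higher by 4.57 (SE 0.302, 95% interval 3.88 to 5.27, limma adjusted p = 2.79e-05), and probe 808 by 3.15 (SE 0.290, 95% interval 2.48 to 3.82, limma adjusted p = 0.000195). With both probes averaged, Lrp2 was 14.5-fold higher in kidney (log2 ratio 3.86, SE 0.284, limma adjusted p = 3.29e-05 over genes). Of all probes tested, 5.18% passed the test as higher in kidney and 7.45% as higher in liver. Kidney and liver averages of one mouse entered as independent. With the mouse as a replicate block on the ratio of single sample over pool, the SE of the 3 probes was 0.500 to 0.501 and all 3 stayed past the threshold. Without mouse 2 the count of all probes past the threshold was 4873 of 14864 tested, against 2358 of 18670 with it. Without mouse 1 the count was 700 of 15051, and without mouse 3 it was 799 of 17969. Each receptor probe passed in all of these fits.

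**Figure D2:**
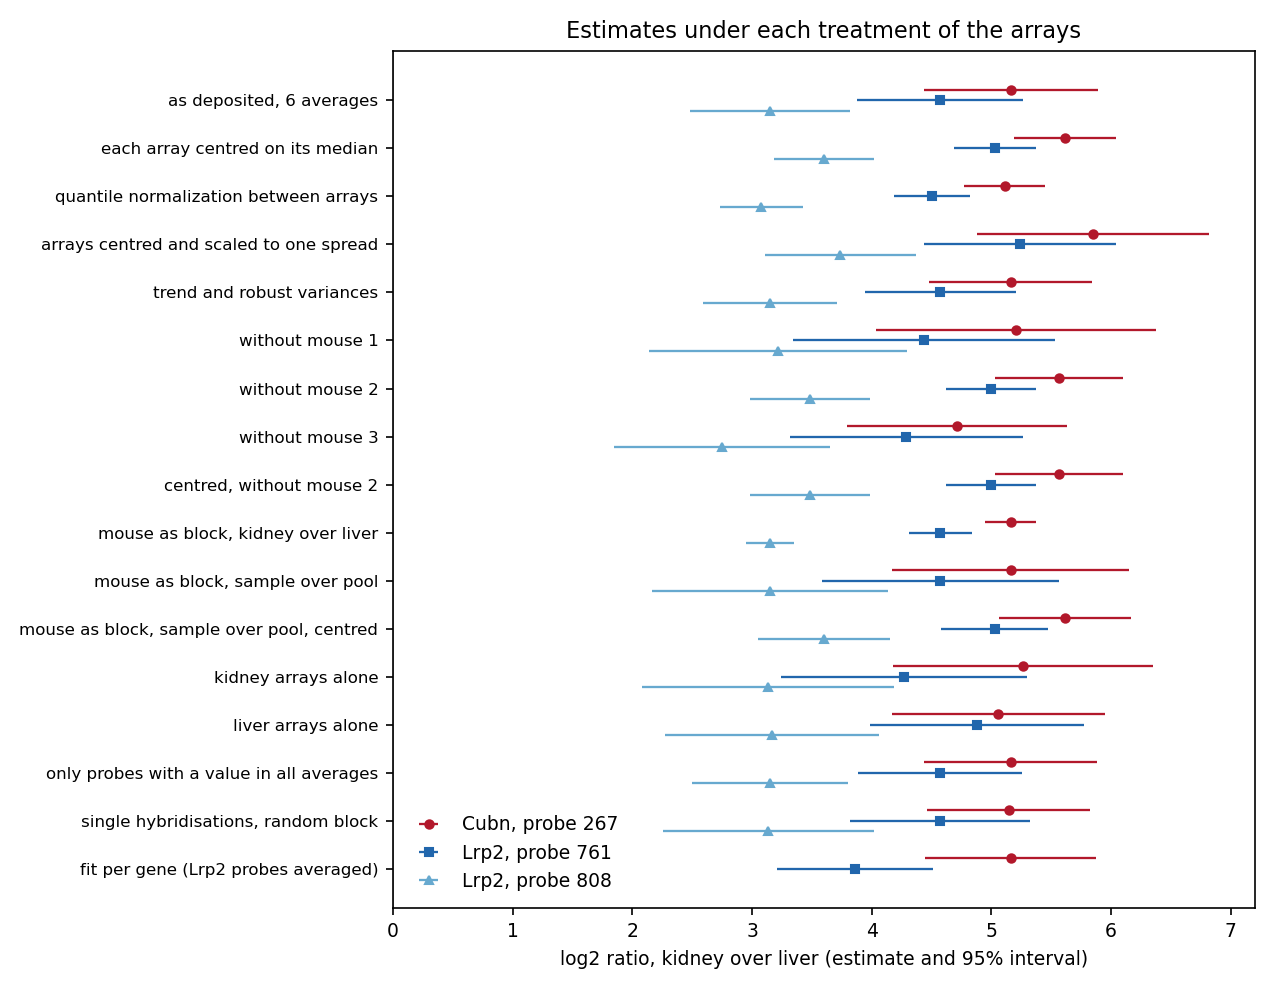
Estimated log2 ratio, kidney over liver, with its 95% interval (horizontal axis) for Cubn and the 2 Lrp2 probes under each treatment of the arrays; in the lowest line Lrp2 is 1 value, the average of its probes. Cubn lies between 4.71 and 5.85, Lrp2 probe 761 between 4.27 and 5.24, probe 808 between 2.75 and 3.74, and the Lrp2 average at 3.86.

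Both receptors sat near the upper end of all probes. By estimate Cubn ranked 16th, Lrp2 probe 761 32nd and Lrp2 probe 808 84th from the top of 18670 probes. Among 9047 genes tested, Cubn ranked 10th and Lrp2 32nd. A rank within an array does not depend on where that array is centred. Cubn ranked between 7 and 48 on single arrays (median 22.5), which is within the top 0.253% on every array. Lrp2 probe 761 ranked between 13 and 72 (median 40), and probe 808 between 49 and 222 (median 131.5), within the top 1.24%. These ranks include the arrays of mouse 2, on which the log2 ratios were lower.

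**Figure D3:**
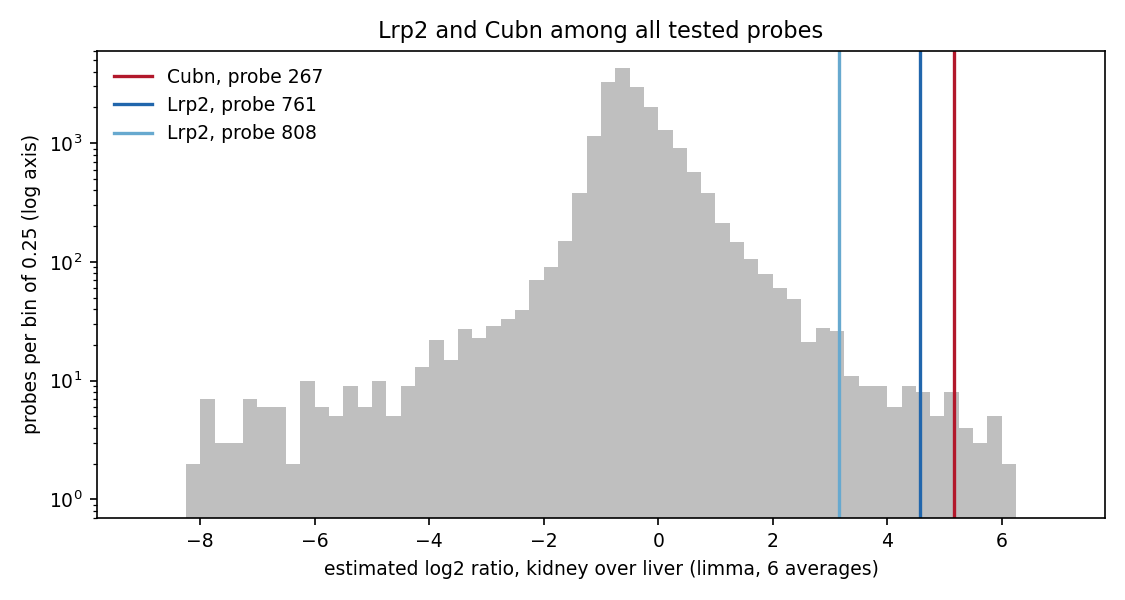
Number of probes per bin of 0.25 (vertical log axis) against the estimated log2 ratio, kidney over liver, for 18670 tested probes; vertical lines mark Cubn at 5.16, Lrp2 probe 761 at 4.57 and Lrp2 probe 808 at 3.15. All 3 lines lie in the sparse upper tail of the distribution, whose median is -0.53.

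The low ratios of mouse 2 moved with its array medians. As deposited, mouse 2 lay below the mean of mice 1 and 3 by a log2 difference of -1.34 for Cubn on kidney arrays and -1.09 for Cubn on liver arrays. For Lrp2 the differences were -0.995 and -1.54 by probe 761, and -1.16 and -0.84 by probe 808. After each array was centred on its median, the differences for Cubn were 0.03 on kidney arrays and 0.25 on liver arrays. They were 0.38 and -0.20 for probe 761, and 0.21 and 0.50 for probe 808. On the centred values Cubn averaged 5.72 ± 0.63 on kidney arrays and 5.51 ± 0.38 on liver arrays. Lrp2 probe 761 then averaged 4.73 ± 0.24 and 5.33 ± 0.42, and probe 808 averaged 3.59 ± 0.44 and 3.62 ± 0.59, in the same order (SD, n = 3 mice each). Of the 6 spreads between mice, the centred one was smaller for every probe and kind of array.

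Differences between the mice were tested with limma's moderated F on single hybridisations, which sets the RNA samples of mice against hybridisation error. As deposited, Cubn had adjusted p-values of 0.00041 on kidney arrays and 0.00254 on liver arrays. Lrp2 had 0.0057 and 0.000612 by probe 761, and 0.0173 and 0.0102 by probe 808. In the same test 73.9% of all probes passed on kidney arrays and 86% on liver arrays, so passing it was the usual outcome. After centring, 47.9% of probes passed on kidney arrays and 38.7% on liver arrays. Of the 6 receptor tests, only that of Cubn on the kidney arrays passed then (limma adjusted p = 0.00266), and mouse 3 has a single kidney array. The centred Lrp2 tests had limma adjusted p-values of 0.329 and 0.110 by probe 761 and 0.191 and 0.0546 by probe 808. Without mouse 2, 0.0208% of all probes passed on kidney arrays and 1.05% on liver arrays, so failing was the usual outcome. The 6 receptor tests then had limma adjusted p-values between 0.191 and 0.796.

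Cubilin's ratio exceeded that of megalin on the same array. The Cubn minus Lrp2 difference, with the Lrp2 probes averaged, was positive on 16 of 16 arrays, with a log2 range of 0.39 to 2.13. Per mouse it was 1.14, 1.25 and 1.51, a mean of 1.30 ± 0.19 (SD, n = 3 mice). Against probe 761 alone the difference was 0.59 ± 0.35 and positive on 13 of 16 arrays, and against probe 808 alone it was 2.01 ± 0.13 and positive on all 16. The 2 Lrp2 probes themselves differed by 1.42 ± 0.35, with probe 761 higher on 16 of 16 arrays. An exact two-sided sign-flip permutation test over the 3 mice gave p = 0.25 for each of these 4 comparisons, also after Benjamini-Hochberg adjustment, which is the smallest value that 3 mice allow. The size of the Cubn to Lrp2 difference therefore depended on which megalin probe was read. It compares ratios of probes and says nothing about which receptor had more RNA.

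The genes with the ratio pattern most like each receptor were found by the root mean square (RMS) difference of log2 ratios over shared arrays, among 7821 genes with at least 14 shared arrays. Closest to Cubn were Slc13a1 at 0.342, Spink1 at 0.380, Cd63 at 0.430, Miox at 0.447 and Rbm42 at 0.471. Closest to Lrp2, taken as the mean of its probes, were Htra1 at 0.540, Fam151a at 0.576, Trnp1 at 0.588, Umod at 0.593 and Car12 at 0.598. Cubn and Lrp2 were not each other's nearest genes. At an RMS difference of 1.26, Lrp2 ranked 29th for Cubn and Cubn ranked 55th for Lrp2. Cubn lay above Lrp2 by a mean of 1.20 over the arrays. The ranks rest on the average of the Lrp2 probes and were not taken for each probe. The measure takes in the size of the ratio as well as its course over the arrays, and all genes share the array medians.

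Genes of proteins known to work with the receptors formed a list of their own. Of 11 listed partners, 6 were tested, 0 passed the limma test as higher in kidney and 1 as higher in liver, with a median log2 ratio of -0.72. Over all 9047 genes tested, 5.56% were called higher in kidney and 8.88% higher in liver, with a median of -0.48, so that counts this low in 6 genes lie near the share of all genes. With centred arrays the balance over all genes turned, with 19.5% called higher in kidney and 12.4% higher in liver and a median of -0.01. Without mouse 2 the shares were 20.3% and 15.7%, and with the mouse as a replicate block on single sample over pool they were 2.79% and 4.72%. With centred arrays 1 partner, Lrpap1, was called higher in kidney and 1 higher in liver. Amn, which anchors cubilin in the membrane, had a log2 ratio of -0.66 (SE 0.24, limma adjusted p = 0.0993), and 88.9% of its values recurred exactly within an array, against 0.0% for the receptor probes. Without mouse 2 the Amn ratio was -0.39 with a limma adjusted p of 0.0344. With centred arrays the Amn ratio was -0.21 (limma adjusted p = 0.302). Under the replicate block on single sample over pool its limma adjusted p was 0.357. Lrpap1, the chaperone that keeps megalin from binding ligands early in secretion, had 0.13 (SE 0.22, limma adjusted p = 0.63). With centred arrays Lrpap1 was at 0.59 (limma adjusted p = 0.0337). Fcgrt, the neonatal Fc receptor that spares albumin and IgG from degradation, was lower in kidney by a log2 ratio of -1.41 (SE 0.21, limma adjusted p = 0.00242). Clcn5 and Ocrl, whose loss in people impairs the tubular uptake of protein, had -0.78 and -0.41 and did not pass. Of their values 66.7% and 80.0% recurred exactly, which limits what these ratios can show. With centred arrays Ocrl was at 0.05, and without mouse 2 at 0.25. Dab2, an adaptor that binds the megalin tail, had no single-symbol probe.

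Clathrin coat and endosome genes serve all cells. Of 21 tested, 2 were higher in kidney and 4 higher in liver by the limma test, with a median log2 ratio of -0.50. Over all genes the shares were 5.56% and 8.88%. Clta, a clathrin light chain, was higher in kidney by 1.15 (limma adjusted p = 0.00545), and Rab5c, an early endosome GTPase, by 0.83 (limma adjusted p = 0.0371). Cltb, the other clathrin light chain, was at -2.83 (limma adjusted p = 2.55e-05), and Appl1, an early endosome adaptor, was at -1.95 (limma adjusted p = 0.000468). Ehd1 at -1.45 and Rab14 at -1.19, both recycling factors, were also higher in liver. With the mouse as a replicate block, 0 were called higher in kidney and 3 higher in liver, and the limma adjusted p was 0.114 for Clta, 0.278 for Rab5c and 0.0977 for Rab14. With centred arrays the counts were 7 and 5 of 21 with a median of 0.06, and without mouse 2 they were 7 and 4 of 17 tested, beside the larger shares over all genes under those settings given above.

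Of the 12 other listed members of the lipoprotein receptor family and related sorting receptors, 3 were tested, of which 1 was higher in kidney and 0 higher in liver. Among all genes tested, 5.56% were called higher in kidney and 8.88% higher in liver. Sorl1, a sorting receptor of neurons and kidney, was higher in kidney by 2.11 (SE 0.36, limma adjusted p = 0.00507). Lrp10 at 0.42 and Lrp1b at 0.32 did not pass, though both passed with centred arrays at 0.87 and 0.77 (limma adjusted p = 0.0112 and 0.0173). In that fit 19.5% of all genes were called higher in kidney. Exact recurrence took in 30.0% of the values of Lrp10 and 60.0% of those of Lrp1b. Lrp1 had too few values to be tested, and Vldlr, Lrp5 and Lrp6 had no single-symbol probe. The log2 ratios of Lrp2 and Cubn, 3.86 and 5.16, lay above those of the 3 tested relatives. No test of that difference was made.

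Genes of receptor ligands ranged widely. Of 23 tested, 3 were higher in kidney and 11 higher in liver, with a median log2 ratio of -0.70. Beside this, 5.56% and 8.88% of all genes were called, with a median of -0.48. Within this list the lowest ratios belonged to Alb, the gene of albumin, at -7.89, Plg (plasminogen) at -7.31, Rbp4, the plasma carrier of retinol, at -7.09 and Fabp1, the liver fatty acid binding protein, at -6.89, with limma adjusted p-values between 3.26e-07 and 5.62e-06. Apoa1 and Ttr, carriers of lipid and of thyroid hormone, were at -5.48 and -3.23. The exceptions were Tcn2, the carrier transcobalamin that delivers vitamin B12 to megalin, at 3.72 (limma adjusted p = 6.18e-06), Lpl, lipoprotein lipase, at 1.73 (limma adjusted p = 0.000709) and Apom, an apolipoprotein that binds megalin, at 0.87 (limma adjusted p = 0.019). For Apom the limma adjusted p was 0.267 with the mouse as a replicate block, and 40.0% of its values recurred exactly. Tcn2 had the ratio nearest to those of the receptors among the 23 ligands.

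A further list held genes that handle the vitamins brought in by the receptors. Of 5 tested, 3 were higher in kidney and 0 higher in liver, with a median log2 ratio of 1.55. All genes together gave 5.56% and 8.88%, with a median of -0.48. Mmut, the B12-dependent mitochondrial mutase, was at 2.29 (limma adjusted p = 0.000312), Vdr, the vitamin D receptor, at 1.59 (limma adjusted p = 0.0111) and Cd320, the receptor for transcobalamin, at 1.55 (limma adjusted p = 0.00754). Folr1, the folate receptor of the tubule, was at -0.56 (limma adjusted p = 0.205). With centred arrays Folr1 was at -0.11 (limma adjusted p = 0.53), and without mouse 2 at -0.08 (limma adjusted p = 0.628). Most Folr1 values recurred exactly within an array, a larger share than for Amn, which limits what its ratio can show. Cyp27b1 and Cyp24a1, which activate and degrade vitamin D, had no single-symbol probe.

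Among transcription factors listed as regulators of tubule and hepatocyte genes, 5 were tested, of which 1 was higher in kidney and 1 higher in liver. The shares over all genes were 5.56% and 8.88%, and no difference from them was tested. Hnf4a, a nuclear receptor present in both organs, was higher in kidney by 1.37 (SE 0.21, limma adjusted p = 0.00252). Rxra, the partner of many nuclear receptors, was at -0.81 (limma adjusted p = 0.0319), but at -0.36 (limma adjusted p = 0.3) with centred arrays and with a limma adjusted p of 0.285 under the replicate block.

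Marker genes of the proximal tubule, the cell type in which both receptors are known to act, were higher in kidney in 18 of 28 tested and higher in liver in 1, with a median log2 ratio of 2.18. For all genes the shares were 5.56% and 8.88%, with a median of -0.48. The list had been chosen with earlier results of these data known. Kap, Miox, Slc13a1, Slc22a8 and Slc22a6 were also on the kidney list that set the direction, so their sign is no separate evidence. Kap, an androgen-regulated kidney protein, was at 6.05, Miox, the enzyme that oxidises inositol, at 5.18, Slc13a1, a sulfate transporter, at 5.15 and Slc22a8, an organic anion transporter, at 4.92. The Cubn ratio of 5.16 lay between those of Miox and Slc13a1. The Lrp2 ratio of 3.86, the average of its probes, lay between those of Slc22a6 at 4.22 and Mep1b at 3.79. Neither Lrp2 probe alone did, with probe 761 at 4.57 above both and probe 808 at 3.15 below both. Mep1a, a brush border metalloprotease subunit, was at -1.47 (limma adjusted p = 0.00402), and at -1.02 (limma adjusted p = 0.0544) with centred arrays. Without mouse 2 Mep1a was at -1.66 (limma adjusted p = 0.000372), and under the replicate block on single sample over pool its limma adjusted p was 0.0189. Whether the receptors' ratios follow the amount of proximal tubule in the samples was not tested.

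**Figure D4:**
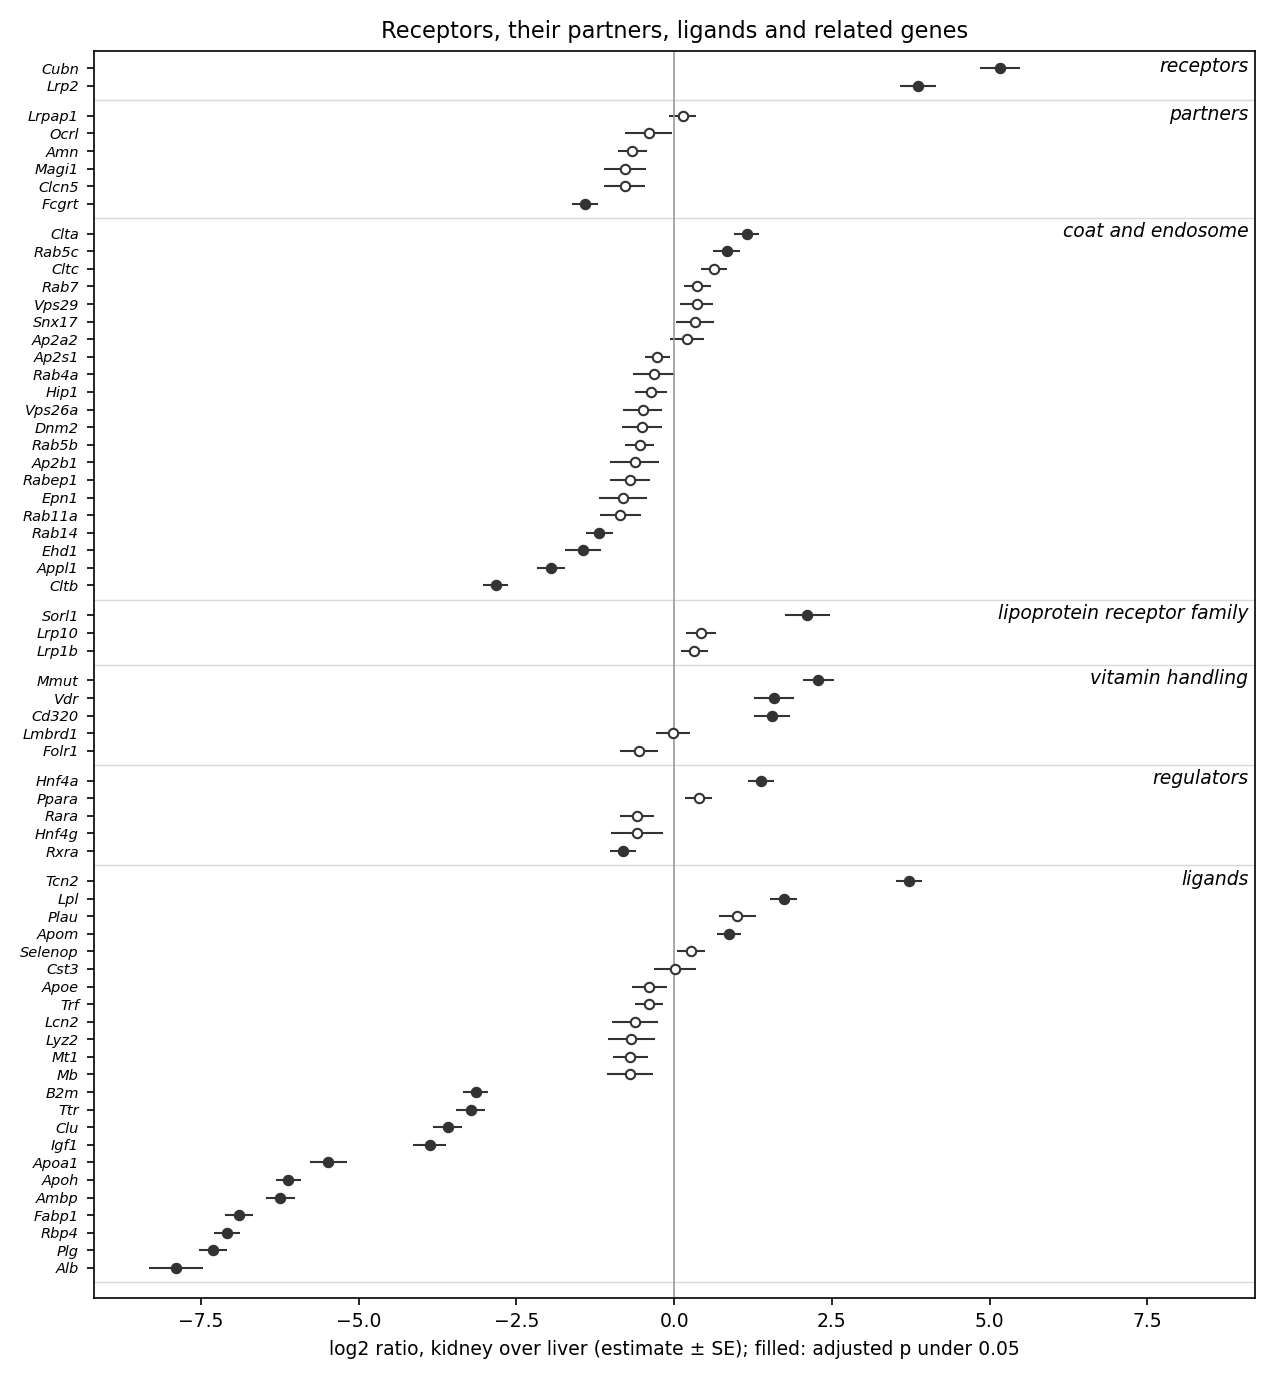
Estimated log2 ratio, kidney over liver, with its SE (horizontal axis) for the 2 receptors and the tested genes of 6 lists (1 gene per line, proximal tubule markers not drawn); filled points have a limma adjusted p under 0.05. Cubn at 5.16 and Lrp2, the average of its probes, at 3.86 lie highest of the genes drawn. Tcn2 at 3.72 follows among the ligands, above Lrp2 probe 808 alone at 3.15, which is not drawn. Alb at -7.89 lies lowest of the genes drawn.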

How the data were processed

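RNA of kidney or liver from single mice and of pools was hybridised to cDNA arrays with 2 colours. Per the labels' protocols, 20 µg of RNA per sample received Cy3 or Cy5 by indirect labelling, GenePix Pro 3.0 gave background-subtracted mean intensities, and each array's ratios were scaled to have 1 as their median. The deposited values are log2 ratios. For the base, 144 spacings between frequent values were set against the logarithms of ratios of whole numbers up to 10, with a tolerance of 1e-04. Base 2 matched 141, log10 matched 15 and the natural log 0. Dye assignment and numerator are not given in the sources used here, so direction was set from the organ marker lists, after seeing the data. The median of 1 did not hold on the 6 arrays of mouse 2. Values were used as deposited, with centring as an alternative.

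Of all probes, 11723 had 1 symbol in the platform annotation provided, 806 several and 7890 none, and 11590 of the first matched RefSeq. Annotation can be old, and where a probe lies in its transcript was not known. Probes of a gene were averaged for fits per gene. Hybridisations of one mouse and organ share their RNA, so they entered as their mean. The 6 means were fitted in R 4.3.3 with limma 3.58.1, with the organ difference as the intercept and a term for the array kind. A probe had to have values for 2 or more mice of each organ. The test between mice was limma's moderated F over hybridisations. Adjusted p-values are Benjamini-Hochberg over all probes or genes, with a threshold of 0.05. The fit was tested on simulated data with independent averages. These held neither the shift of mouse 2 nor a correlation between the organs of a mouse, so the SE was not checked against either. The number of mice limits precision, and p-values of the fit reported rest on the spread between these 3 animals only. Those of the test between mice rest on hybridisation error. The replicate block on kidney over liver takes differences between mice out of the error. Under the block on single sample over pool the SE was shared over genes, at 0.454 for Lrp2, Cubn and Clta alike. That SE does not show the spread of a single gene. Mouse numbers mark the same animal in both organs, per the labels. Deviations of single sample over pool correlated between a mouse's kidney and liver averages at -0.591, -0.795 and -0.585 over 14688 probes, which are positive as kidney over liver. The fit without the block leaves this out, and its SE tends to be too small.

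The receptors and the gene lists were chosen with earlier results of these data known, and the direction lists are no independent evidence of direction. From each list the text names up to 4 members past the test with the largest change in each direction, and members set beforehand for their role. Slc22a6 and Mep1b were named after their values were seen, as neighbours of Lrp2. Apoa1, Ttr, Lrp10 and Lrp1b were also named outside this rule. Among the ligands, Ambp at -6.24 and Apoh at -6.11 were lower than Apoa1 and were not named above. Promoter windows came from RefSeq, in which both receptors were matched by symbol. Protein sequences were not used here, and some listed genes are not reported here. Figures were drawn with matplotlib 3.10.9.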

Additional observations from a re-analysis of the deposited data

How the results depend on the processing

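Under 16 alternatives each, Cubn, Lrp2 probe 761 and Lrp2 probe 808 kept their direction and stayed past the threshold, with the highest limma adjusted p-values, 0.00287, 0.00405 and 0.0127, in the fits without mouse 1. For both Lrp2 probes 1 of these alternatives was the same fit with the probes averaged, which tests neither probe alone. Some alternatives changed only the error or the set of probes tested, so the direction could not change there. Centring and scaling the arrays gave 57.8-fold for Cubn and 37.7-fold for Lrp2 probe 761, and averaging the Lrp2 probes gave 14.5-fold, against 23.8-fold by probe 761 and 8.88-fold by probe 808 alone. The number of probes past the threshold, 2358 in the fit reported, depended on the setting. It was 5445 with centred arrays (3328 higher in kidney, 2117 higher in liver), 13609 after quantile normalization, 5830 after centring and scaling, 4877 with centring and mouse 2 left out, 774 on the kidney arrays alone, 1543 on the liver arrays alone and 4141 on single hybridisations with a random block. Leaving out 1 mouse gave 700 to 4873, in fits that tested 14864 to 17969 probes. With the mouse as a replicate block the count was 15425 on kidney over liver and 966 on single sample over pool, where the SE of Cubn was 0.0942 and 0.501. The median of all probes' estimates was -0.53 as deposited and -0.06 with centred arrays. Between mice, the limma adjusted p with centred arrays was 0.329 (Lrp2 probe 761), 0.191 (probe 808) on the kidney arrays, and 0.11 (probe 761), 0.0546 (probe 808) and 0.12 (Cubn) on the liver arrays. Without mouse 2 it was 0.796 (probe 761), 0.543 (probe 808) and 0.193 (Cubn) on the kidney arrays, and 0.208, 0.191 and 0.247 on the liver arrays, in fits in which 0.0208% and 1.05% of all probes passed. The Cubn minus Lrp2 difference was 1.57 on the kidney arrays, 1.03 on the liver arrays and 1.19 to 1.38 without 1 mouse. Of 51 list genes checked under 3 settings chosen after the data were seen, 47 (centred), 49 (without mouse 2) and 46 (replicate block on single sample over pool) kept direction and side of the threshold. These 51 were the list genes past the threshold in the fit reported, with role genes added. Most list genes that newly passed under a setting were therefore not counted, and the shares kept do not describe whole lists. Ocrl turned to 0.0466 with centred arrays and 0.25 without mouse 2. The causes of these shifts were not tested. The 3 mice and pools without spread limit what the tests can show, and the single Cubn probe leaves no other reading of that receptor.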
